A study of Mus musculus with 12 samples.

Results

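Epcam Ccl17 cells were CD45-enriched cells from tumors that carried transcripts of both Epcam and Ccl17 on a background of high MHC class II expression. They were chosen by a rule on single-cell UMI counts (unique molecular identifiers, each counting 1 captured transcript molecule). A barcode was selected if it held over 200 and under 5000 genes, no more than 10% mitochondrial UMIs, at least 1 UMI of Epcam, of Ccl17 and of Ptprc (CD45), and at least 10 UMIs of H2-Ab1. Barcodes with any UMI of Krt8, Krt18, Cd3d, Cd3e, Cd3g or Xcr1, or with more than 1 UMI of Fscn1, were left out. The rule took 1143 of the 128912 cells that passed the filter on genes and mitochondrial UMIs (0.887%). These were 2.24% of the 50919 cells that met the same limits on H2-Ab1, Ptprc, keratins and Cd3 (exact 95% interval 2.12 to 2.38), called gated cells from here on. The levels of Epcam, Ccl17, H2-Ab1, Ptprc, Xcr1 and Fscn1 in these cells were therefore set by the choice and are given as a description.

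The cells came from MC38 tumors, grown from a mouse colon carcinoma line under the skin of C57BL/6 mice and harvested on day 17. Mice received PF-06821497, an EZH2 inhibitor (EZH2i), at 100 mg/kg daily under the skin for 7 or 16 days, or vehicle for the same times, with 3 mice in each of the 4 groups. CD45+ cells were enriched with magnetic beads, and every group carried the same tumor line in the same strain. The deposited matrix pooled 12 libraries, numbered in the barcodes, and no label used here tied a library number to a mouse. No group was inferred from the order or size of the libraries. EZH2i was therefore not compared with vehicle, the libraries were described by number, and the pooled cells were treated as 1 sample with no test. Intervals on levels and shares cover counting error only.

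Conventional dendritic cells present antigen on MHC class II and MHC class I and are divided into cDC1, which use the factors IRF8 and BATF3 and carry XCR1 and CLEC9A, and cDC2, which use IRF4 and carry lectins such as CD209A. After activation both turn on a shared program with FSCN1 and CCR7, the receptor that guides them to lymph nodes. CCL17 is a chemokine that attracts T cells bearing CCR4, and EPCAM is a homophilic adhesion molecule of epithelium that is also known from Langerhans cells of the skin.

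To place the Epcam Ccl17 cells, 4 comparison groups were taken from the gated cells by other transcripts, all without Epcam and with Ccl17 left free. They were 265 Cd209a-positive dendritic cells (at least 2 UMIs of Cd209a), 592 Xcr1-positive dendritic cells (at least 2 UMIs of Xcr1), 120 Fscn1 Ccr7 dendritic cells (at least 3 UMIs of Fscn1 and 1 of Ccr7) and 43355 C1q macrophages (at least 3 UMIs of C1qa). Median UMIs per cell were 6850 in the Epcam Ccl17 cells and 5173, 6651, 7717 and 7104 in these groups. A level below is the UMIs of a gene summed over the cells of a group and scaled to 1000000 UMIs of that group (CPM).

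Ccl17, on chromosome 8 (94810453 to 94812036, plus strand, GRCm38), was 1 of the genes that chose the cells. Its 250 bases upstream of the RefSeq start (GRCm38.p6, chr8:94810203-94810452, plus strand) are shown because the gene is a known target of STAT factors downstream of cytokine receptors. Capitals mark a match to TTCNNNGAA, a palindrome of the kind that STAT dimers bind, 99 bases before the start. The same letters occur upstream of 8.13% of the 27025 genes with a promoter in that table. Further upstream the stretch also holds a match to TTCNNNNGAA, with 1 base more between the arms, which is left in lower case. That form occurs upstream of 6.76% of these genes.
Ccl17: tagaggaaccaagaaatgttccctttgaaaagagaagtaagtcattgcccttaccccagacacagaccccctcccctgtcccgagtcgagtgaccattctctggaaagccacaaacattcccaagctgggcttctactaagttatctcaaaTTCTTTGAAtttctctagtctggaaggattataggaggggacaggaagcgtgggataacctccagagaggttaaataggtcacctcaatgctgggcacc
The matches are a description of these letters and say nothing of binding in these cells.

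Epcam Ccl17 cells were found in all 12 libraries, at unequal shares. Counts per library ranged from 7 to 342 with a median of 70.0, and library 6 held 29.9% of all of them. As a share of gated cells they ranged from 0.540% in library 4 to 5.31% in library 8 (exact 95% intervals 0.309 to 0.876 and 4.48 to 6.25), with a median of 1.65%. These are the extremes of 12 libraries, and their intervals cover counting error alone. Median UMIs per Epcam Ccl17 cell also varied, from 3168.5 in library 6 to 23483 in library 12. Pooled levels sum UMIs, so libraries with deep cells weigh more in them than their cell number. The 138 cells of library 8 had a median of 21628 UMIs and gave 3108 UMIs of Il1r2. The 342 cells of library 6 gave 531. Libraries 1 to 6 contained Y-linked transcripts (127.8 to 209.4 CPM over Ddx3y, Eif2s3y, Kdm5d and Uty), whereas libraries 7 to 12 contained none and had Xist at 657.6 to 869.8 CPM; the study's methods describe female mice. The pooled share of gated cells was 2.16% (2.02 to 2.31) in the first set and 2.48% (2.22 to 2.76) in the second. The second value rested on library 8, without which it was 1.80% (1.56 to 2.07), and the medians over libraries ran the other way, at 1.83% and 1.65%. Among the barcode sequences, 2261 occurred in more than 1 library, and 40 Epcam Ccl17 cells carried such a sequence, but no sequence belonged to an Epcam Ccl17 cell in more than 1 library.

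**Figure D1:**
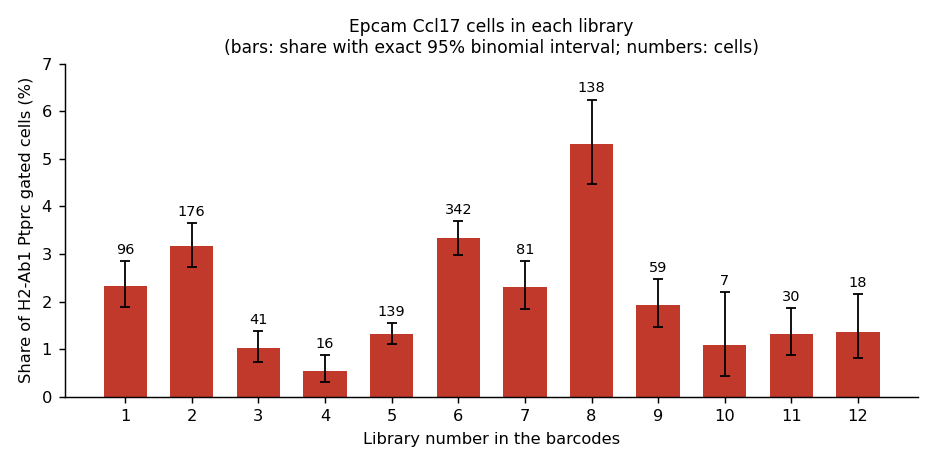
Epcam Ccl17 cells as a percentage of gated cells (y axis) in each of the 12 libraries (x axis), with exact 95% binomial intervals and the number of cells above each bar. Library 8 is highest at 5.31% and library 4 lowest at 0.540%.

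The genes of the rule were usually counted at few UMIs. Epcam had a median of 2 UMIs per cell (quartiles 1 and 3, highest 28), Ccl17 a median of 6 (quartiles 2 and 16, highest 253) and H2-Ab1 a median of 70. Epcam Ccl17 cells held 49.9% of all Epcam UMIs of the filtered cells and 26.7% of all Ccl17 UMIs, at 327.9 and 1676 CPM. Only 3 filtered cells had both Krt8 and Krt18, and they held 4 of the 6650 Epcam UMIs. Ccl17 was not restricted to Epcam-bearing cells: it stood at 788 CPM in Cd209a-positive and 1377 CPM in Fscn1 Ccr7 dendritic cells, 189 CPM in Xcr1-positive dendritic cells and 28.5 CPM in C1q macrophages. Among gated cells that met the Xcr1 and Fscn1 limits, 68.0% of those with Epcam also had Ccl17, against 5.47% of those without. In T cells, taken as 3916 filtered cells with Cd3 transcripts and at most 1 UMI of H2-Ab1 (median 3284.5 UMIs), 1.15% had an Epcam UMI and 1.43% a Ccl17 UMI. These shares describe shallower cells that should lack both. The limit on H2-Ab1 can leave out T cells that carry transcripts of MHC class II-high cells. The shares are therefore not a background for gated cells, which hold at least 10 UMIs of H2-Ab1. Of the C1q macrophages, 4.19% had a Ccl17 UMI.

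Cells just inside and just outside the limits are given as a description. The 488 cells with exactly 1 Epcam UMI had Plet1 at 538.4 CPM and Dcstamp at 178.0 CPM, against 186.3 and 110.9 CPM in the 2611 Ccl17-bearing cells with no Epcam UMI. The 183 cells with exactly 1 Ccl17 UMI had Il1r2 at 624.6 CPM, and the 537 Epcam-bearing cells without Ccl17 had it at 574.1 CPM. Lowering H2-Ab1 to 5 to 9 UMIs would have added 14 cells, and 198 cells without a Ptprc UMI, 284 with Cd3, 64 with Xcr1, 8 with 2 or more Fscn1 UMIs and 4 with keratin were turned away. The cells lost for Ptprc were shallow, with a median of 2371 UMIs and Epcam at 496.7 CPM.

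Plet1 and Kit, which the rule did not use, were high in Epcam Ccl17 cells but no higher when pooled than in Xcr1-positive dendritic cells. Plet1, a glycolipid-anchored surface protein of epithelial progenitors and intestinal dendritic cells (chromosome 9, 50494525 to 50505482), reached 580.9 CPM (566.1 to 595.9), and by library its lowest, median and highest levels were 452.1, 586.1 and 943.8 CPM over the 9 libraries with at least 20 cells. It stood at 776.3 CPM in Xcr1-positive dendritic cells, and of the 8 libraries with 20 cells of both groups it was higher in Epcam Ccl17 cells in 4 and lower in 4. Against Cd209a-positive dendritic cells (61.8 CPM) it was 9.39-fold higher, in 5 of 5 libraries. Kit, the receptor for stem cell factor (chromosome 5, 75574916 to 75656722), stood at 81.2 CPM in Epcam Ccl17 cells and 87.9 CPM in Xcr1-positive dendritic cells, where it was higher in 7 of 8 libraries. It was 2.42-fold above Cd209a-positive dendritic cells, in 5 of 5 libraries. With every cell thinned to 2000 UMIs, Plet1 was detected in 51.3% of Epcam Ccl17 cells (69.1% before thinning), 59.8% of Xcr1-positive, 4.71% of Cd209a-positive and 5.88% of Fscn1 Ccr7 dendritic cells and 1.54% of 5000 C1q macrophages drawn at random, with 69, 12, 10, 1 and 1693 shallower cells left out in that order. In T cells 0.485% had a Plet1 UMI and 2.58% a Kit UMI.

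The genes that most separated Epcam Ccl17 cells from all 4 groups at once were led by Dcstamp. Ranked by the ratio to the highest comparison group, the 20 leading genes with at least 50 CPM were Dcstamp, Ppp1r1a, Il1r2, H2-DMb2, Ltb, H2-Oa, Akr7a5, Siglece, Aldoc, Mgl2, Mtss1, Fam110a, Cdh1, Gm17056, Rhoq, Smpdl3a, D16Ertd472e, Actr1b, B4galt6 and Mfge8. These ratios fell from 8.78 for Dcstamp to 1.61 for Mfge8. Dcstamp encodes the membrane protein DC-STAMP, first known from dendritic cells and required for fusion of osteoclast precursors (chromosome 15, 39745930 to 39760938). It reached 203.3 CPM (194.6 to 212.3), against 18.9, 23.2 and 12.5 CPM in the Cd209a-positive, Xcr1-positive and Fscn1 Ccr7 dendritic cells and 15.7 CPM in C1q macrophages. Its lowest, median and highest library levels were 139.8, 187.3 and 245.1 CPM. In libraries of the Cd209a-positive cells it ranged from 0 to 63.8 CPM. Dcstamp was chosen by its ratio to these groups, so this gap was largely set by the choice.

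Il1r2, the decoy receptor that binds IL-1 without signaling (chromosome 1, 40074079 to 40125231), was the most abundant of these genes after Mgl2. It stood at 703.9 CPM (687.6 to 720.4) with a library range of 444.0 to 1018.3 CPM, against 214.8 CPM in Cd209a-positive dendritic cells, and it was higher in 5 of 5 libraries. In the other groups it lay between 61.0 and 65.9 CPM. Il1b, which encodes a ligand that the decoy receptor binds, was also high, at 4401 CPM against 3479 CPM in Cd209a-positive, 897.3 CPM in Xcr1-positive and 2094 CPM in Fscn1 Ccr7 dendritic cells. Mgl2, the galactose-type lectin CD301b that marks a subset of cDC2, was at 1020.2 CPM, 2.02-fold above Cd209a-positive dendritic cells in the pooled cells but higher in only 3 of 5 libraries. It was 25.7-fold above Xcr1-positive dendritic cells, in 8 of 8 libraries.

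Ppp1r1a, which encodes an inhibitor of protein phosphatase 1, had the highest ratio to Cd209a-positive dendritic cells among the named genes. It stood at 65.9 CPM (61.0 to 71.1), with 666 UMIs in 31.2% of the cells, and ranged over libraries from 23.5 to 133.6 CPM. Cd209a-positive dendritic cells held 2 UMIs of it, which gives a ratio of 62.8 with a wide counting interval of 17.3 to 520.0. Xcr1-positive and Fscn1 Ccr7 dendritic cells had 9.1 and 11.6 CPM. Ltb, which encodes lymphotoxin beta, a ligand that shapes lymphoid tissue, stood at 93.4 CPM against 20.4, 5.8 and 33.9 CPM in the dendritic cell groups and 2.2 CPM in macrophages. Cdh1, E-cadherin, stood at 193.9 CPM against 103.2 CPM in Cd209a-positive dendritic cells and under 20 CPM elsewhere. Mfge8, which encodes a bridge between dying cells and phagocytes, stood at 88.8 CPM against 29.9 CPM in the Cd209a-positive group.

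**Figure D2:**
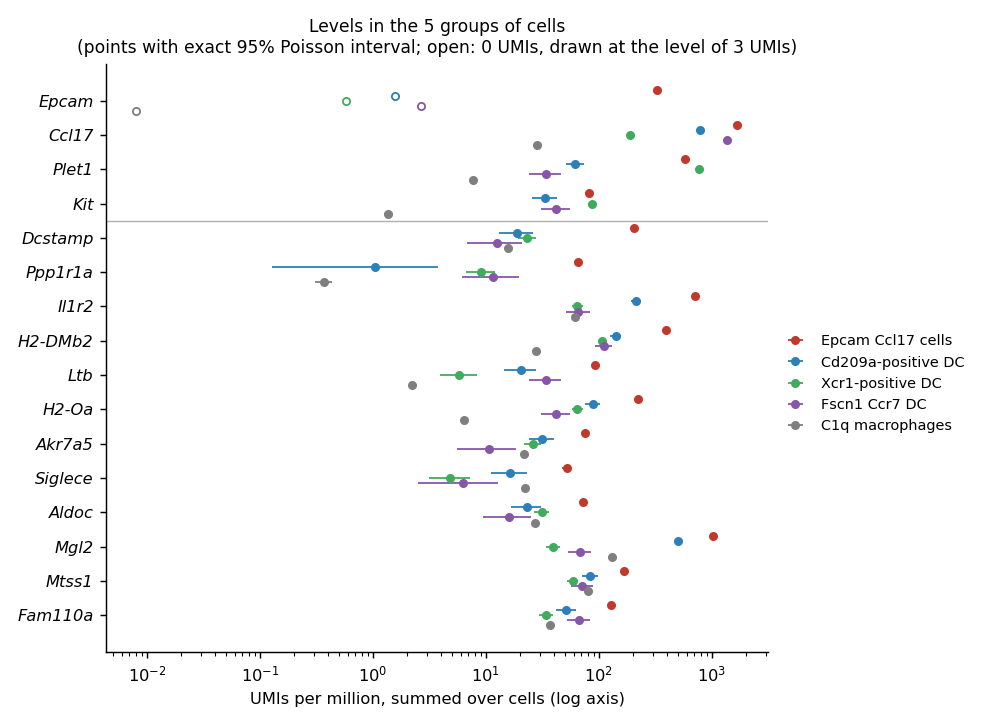
CPM (x axis, log scale) of Epcam, Ccl17, Plet1 and Kit (above the line) and of the 12 leading genes (below it) in Epcam Ccl17 cells and the 4 comparison groups, with exact 95% Poisson intervals. Open circles are groups with no UMI, drawn at the level of 3 UMIs; Dcstamp lies at 203.3 CPM in Epcam Ccl17 cells and at most at 23.2 CPM elsewhere, whereas Plet1 lies below Xcr1-positive dendritic cells and Kit overlaps them.

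Most of these levels held from library to library. Among the 9 libraries with at least 20 Epcam Ccl17 cells, H2-DMb2 ranged from 257.5 to 473.8 CPM and Ltb from 49.3 to 119.0 CPM. Of these 9, library 6, which held the most cells at the lowest depth, had the lowest Il1r2 (444.0 CPM), H2-DMb2 (257.5 CPM), H2-Oa (137.1 CPM), Ltb (49.3 CPM) and Mgl2 (658.9 CPM). Each of these was still above the pooled level of every comparison group, though the genes had been chosen by the pooled ratio to those groups. Ppp1r1a was lowest of the 9 in library 7, at 23.5 CPM. Library 4, with 16 Epcam Ccl17 cells, had Il1r2 at 95.1, H2-Oa at 77.8 and Ltb at 17.3 CPM. Each was under the pooled level of Cd209a-positive dendritic cells. In libraries 10 and 12, which also held under 20, these genes were above the pooled level of every comparison group.

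**Figure D3:**
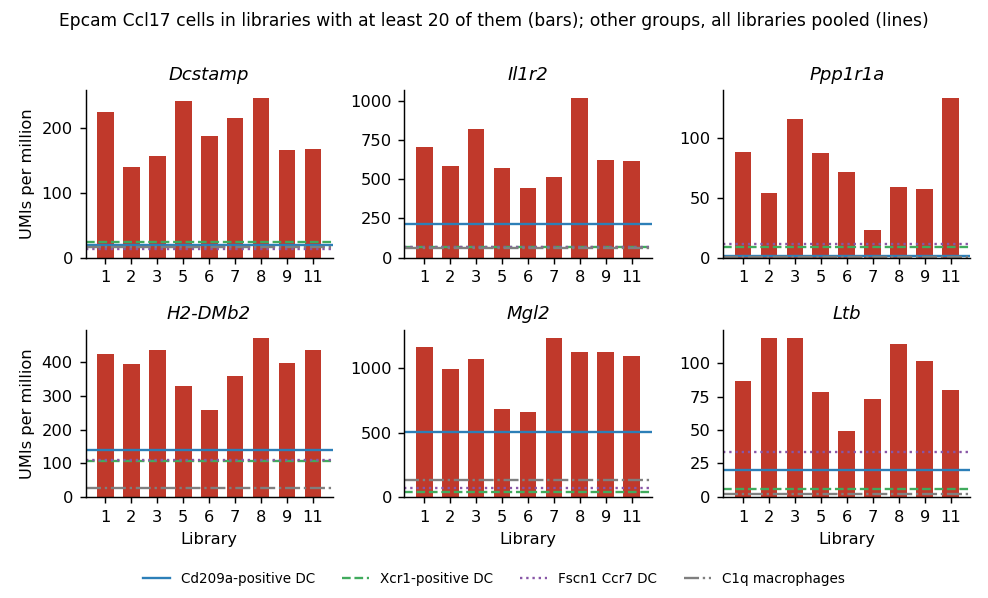
CPM (y axis) of 6 leading genes in Epcam Ccl17 cells of each library with at least 20 of them (bars, x axis), and the pooled level of each comparison group (lines). Every bar lies above every line; the Dcstamp bars run from 139.8 to 245.1 CPM.

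Cd209a-positive dendritic cells were the group with the fewest genes 2-fold apart from Epcam Ccl17 cells. Of 2998 genes with at least 50 CPM in either group and not used by a rule, 66 were at least 2-fold higher in Epcam Ccl17 cells (2.20%) and 151 at least 2-fold lower (5.04%). The median log2 ratio of all these genes was -0.14, so changes are to be read against a shift of that size. With scaling to the median ratio over genes instead of total UMIs, 99 were higher and 110 lower, which moved the higher share of calls from 30.4% to 47.4%. Library 4 held 62 of the 265 Cd209a-positive dendritic cells but only 16 Epcam Ccl17 cells. Without it 62 genes were higher and 111 lower, among them 57 of the 66 and 103 of the 151. The median over the 5 shared libraries called 80 and 91, among them 54 of the 66 and 63 of the 151. Higher genes that ran the same way in all 5 shared libraries were led by Ppp1r1a, Itgae, Dcstamp, Plet1, Spint2, Qpct, Pclaf, Tbc1d4, Ltb and Serpinb9. Itgae, the integrin CD103 that binds E-cadherin, stood at 150.1 against 6.3 CPM (23.9-fold), and Qpct, a glutaminyl cyclase, at 457.7 against 76.5 CPM. Neither was particular to Epcam Ccl17 cells, since Xcr1-positive dendritic cells had Itgae at 374.1 and Qpct at 367.5 CPM.

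Lower genes included lectins, monocyte genes and some of the cDC2 list. Those lower in all 5 shared libraries, a condition for being named here, were led by Cd209d, Cd209e, Cd7, Clec4b1, Cyp7b1, Timp1, Wfdc17, Fam129b and Clec10a. Cd209d and Cd209e, neighbors of the Cd209a gene that chose the comparison group, had 2 UMIs each in Epcam Ccl17 cells and 371 and 101 in the Cd209a-positive cells. Cd7 stood at 1.2 against 114.2 CPM. Clec10a, a lectin that marks cDC2, stood at 78.4 against 421.8 CPM. Of the monocyte list, 4 of 4 genes at this level were lower, beside 5.04% of all genes: Plac8, Ly6c2, Ccr2 and Fn1, with Plac8 at 443.0 against 1621 CPM. Plac8 and Ccr2 were lower in 5 of 5 libraries, Ly6c2 in 4 and Fn1 in 3. The neutrophil genes S100a8 and S100a9 were lower as well, at 14.2 and 19.1 CPM against 126.3 and 171.3 CPM, but S100a8 was higher in Epcam Ccl17 cells in 3 of 5 libraries and S100a9 in 2.

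Genes of the cDC2 list were mostly higher, and those of the cDC1 list lower, in Epcam Ccl17 cells than in Xcr1-positive dendritic cells, which were chosen by a gene of the cDC1 list. Against Xcr1-positive dendritic cells, 197 of 2903 genes were at least 2-fold higher (6.79%) and 133 lower (4.58%). Of the cDC2 list, 6 of 7 genes at this level were higher, namely Irf4, Mgl2, Tnip3, Klrd1, Clec10a and Sirpa, and none was lower, with a list median of 2.50 on the log2 scale beside -0.05 over all genes. Against Cd209a-positive dendritic cells 1 of 8 cDC2 genes was higher (Mgl2) and 3 were lower (Cd7, Clec10a and Itgam), beside 2.20% and 5.04% of all genes, with a median of -0.66 beside -0.14. Irf4, the factor on which cDC2 depend, stood at 78.7 CPM against 2.7 CPM (28.9-fold, 8 of 8 libraries) and at 99.0 CPM in Cd209a-positive dendritic cells. Of the cDC1 list, all 8 genes at this level were lower (median -2.55): Clec9a, which senses dead cells, stood at 4.0 against 186.4 CPM, and Irf8 at 160.3 against 1100.0 CPM. Cadm1, Tlr3, Naaa, Ifi205, Wdfy4 and Itgae were the others. Xcr1 itself was excluded by the rule, and 64 cells were left out for it, so the lower cDC1 genes were largely set by the choice. Against Fscn1 Ccr7 dendritic cells 4 of 5 cDC1 genes were higher and 1 lower (6.77% and 12.5% of all genes). Against macrophages 3 of 6 were higher and 1 lower (6.00% and 10.3%). Against Cd209a-positive dendritic cells 1 of 5 was higher and none lower (2.20% and 5.04%).

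Genes of the mature migratory program were lower in Epcam Ccl17 cells than in Fscn1 Ccr7 dendritic cells, which were chosen by 2 genes of that program. Against Fscn1 Ccr7 dendritic cells, 210 of 3104 genes were at least 2-fold higher (6.77%) and 387 lower (12.5%), and the higher share of calls moved from 35.2% to 46.0% under scaling to the median ratio. All 10 genes of the mature list at this level were lower, with a median log2 ratio of -3.33 beside -0.05 over all genes. Nudt17 stood at 0.2 against 80.2 CPM, Apol7c at 0.7 against 126.5 CPM and Il4i1, an enzyme that breaks down aromatic amino acids, at 18.2 against 425.9 CPM. Ccr7 was at 87.0 CPM in Epcam Ccl17 cells, 1669.9 CPM in the Fscn1 Ccr7 dendritic cells chosen for it, and 16.9 CPM in Xcr1-positive dendritic cells. Without the genes of the rules the list summed to 770.2 CPM in Epcam Ccl17 cells, beside 742.0 CPM in Cd209a-positive and 617.1 CPM in Xcr1-positive dendritic cells, 755.5 CPM in macrophages and 5646 CPM in Fscn1 Ccr7 dendritic cells. Against Xcr1-positive dendritic cells 3 of 5 mature genes were 2-fold higher (Ccl22, Ccr7 and Tmem123; 6.79% of all genes), and against macrophages 3 of 5 were higher and 1 lower (6.00% and 10.3%). Only 1 library held 20 cells of both groups. In it alone, 79 of the 210 higher genes (37.6%) and 149 of the 387 lower ones (38.5%) were called again.

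Against C1q macrophages, 182 of 3034 genes were at least 2-fold higher (6.00%) and 312 lower (10.3%). All 11 macrophage genes at this level were lower (median -2.50 beside -0.09 over all genes), among them Apoe at 2450 against 18126 CPM and Adgre1, which encodes F4/80, at 37.5 against 288.7 CPM. The macrophages were chosen by C1qa, another gene of that list, so this direction was largely set by the choice. Flt3, the growth factor receptor that conventional dendritic cells need, stood at 31.5 CPM against 0.7 CPM and was higher in 9 of 9 libraries, though it was lower than in Xcr1-positive dendritic cells (110.1 CPM). Zbtb46, a factor of conventional dendritic cells, stood at 14.2 CPM against 0.3 CPM in macrophages, 15.2 CPM in Cd209a-positive and 18.7 CPM in Xcr1-positive dendritic cells. The conventional dendritic cell list as a whole summed to 626.2 CPM (library range 479.1 to 738.1), beside 598.9, 573.7 and 458.0 CPM in the 3 dendritic cell groups and 274.3 CPM in macrophages, and all 7 of its genes were at 10 CPM or more. Of 4 list genes at 50 CPM, Dpp4 and Ciita were 2-fold higher than in macrophages and none lower (6.00% and 10.3% of all genes). Flt3 and Zbtb46 were under that limit there. Of 5 against Cd209a-positive dendritic cells, none was higher and Bcl11a lower (2.20% and 5.04%). Against Xcr1-positive ones Itgax was higher and Flt3 and Batf3 lower of 5 (6.79% and 4.58%). Against Fscn1 Ccr7 ones Itgax and Ciita were higher and Batf3 and Flt3 lower of 5 (6.77% and 12.5%).

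**Figure D4:**
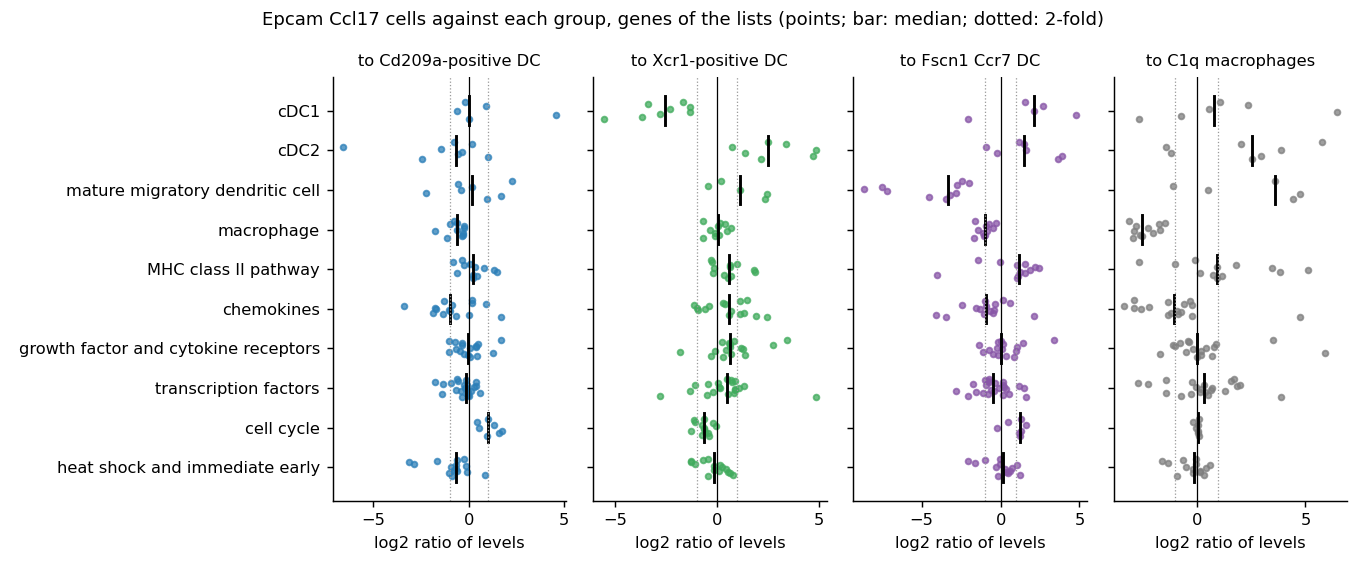
Log2 ratio of levels (x axis) of Epcam Ccl17 cells to each comparison group (panels) for the genes of 10 lists with at least 50 CPM in either group; points are genes, bars list medians and dotted lines 2-fold. All 8 cDC1 genes lie to the left of the dotted lines against Xcr1-positive dendritic cells, all 10 mature genes against Fscn1 Ccr7 dendritic cells and all 11 macrophage genes against C1q macrophages, and 6 of 11 macrophage genes also against Fscn1 Ccr7 dendritic cells.

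MHC class II genes were high in Epcam Ccl17 cells, and 2 accessory chains stood out against the 4 comparison groups. H2-Ab1 was part of the rule, so only the other genes are read. H2-DMb2 (chromosome 17, 34143307 to 34151555), a chain of the H2-M chaperone that loads peptide, stood at 394.4 CPM (382.2 to 406.8) against 141.0, 107.0 and 110.5 CPM in the 3 dendritic cell groups and 27.8 CPM in macrophages. H2-Oa (chromosome 17, 34092340 to 34095234), a chain of the H2-O protein that restrains H2-M, stood at 223.5 CPM (214.4 to 232.9) against 88.6, 64.6, 41.9 and 6.4 CPM. Both were higher in every library that held 20 cells of both groups, in all 4 comparisons. H2-DMb2 has the close paralog H2-DMb1 beside it, and how the counting divided reads that both could give is uncertain. H2-DMb1 stood at 579.2 CPM against 875.6 CPM in Cd209a-positive dendritic cells and was lower in 5 of 5 libraries. They were the only genes among 12 of the pathway at this level to be 2-fold higher than in Cd209a-positive (2.20% of all genes) and in Xcr1-positive dendritic cells (6.79%), and none was lower. Against Fscn1 Ccr7 dendritic cells 9 of 12 were higher (H2-Oa, H2-Ob, H2-DMb2, Ciita, H2-DMa, H2-DMb1, H2-Eb1, Cd74 and H2-Aa) and 2 lower, beside 6.77% and 12.5% of all genes. Against macrophages 5 were higher and 2 lower, beside 6.00% and 10.3%. The invariant chain Cd74 stood at 19263 CPM, the highest of the 5 groups, but only 1.24-fold above Cd209a-positive dendritic cells.

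Promoters of MHC class II genes are known for an X box and a Y box that recruit the coactivator CIITA. The 150 bases that end with the Y box core GATTGG, in capitals, are shown for the 2 genes above, from the RefSeq promoters of GRCm38.p6. They lie at chr17:34145014-34145163 for H2-DMb2 and chr17:34092191-34092340 for H2-Oa, both on the plus strand, and the core begins 91 and 44 bases before the RefSeq start. The gene spans given above come from GENCODE, where H2-DMb2 starts upstream of this stretch, so the stretch lies inside that span.
H2-DMb2: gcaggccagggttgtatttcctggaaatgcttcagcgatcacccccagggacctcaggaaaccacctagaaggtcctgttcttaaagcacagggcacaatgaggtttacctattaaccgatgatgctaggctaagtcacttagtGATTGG
H2-Oa: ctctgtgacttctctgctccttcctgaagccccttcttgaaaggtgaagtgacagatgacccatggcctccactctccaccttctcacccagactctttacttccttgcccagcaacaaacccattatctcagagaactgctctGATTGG
GATTGG, searched on both strands, was found in the 250 bases upstream of 8 of the 11 genes of the pathway with a promoter in the table, and of 16.6% of all genes there. Among the 20 leading genes, 13 had a promoter in the table and 4 of these held it (Actr1b, Fam110a, H2-DMb2 and H2-Oa). TTCNNNGAA was found for 5 of the 13 (Aldoc, H2-DMb2, Il1r2, Ltb and Rhoq), beside 8.13% of all genes. TTCNNNNGAA, with 1 base more between the arms, was found for none of the 13, beside 6.76% of all genes.

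Chemokines differed in direction with the group compared. Apart from Ccl17, which the rule used, Ccl22, which shares the receptor CCR4 with it, was the only 1 of 15 chemokine genes at this level to be 2-fold higher than in Cd209a-positive dendritic cells, and 7 were lower, beside 2.20% and 5.04% of all genes. Ccl22 stood at 124.7 CPM against 38.3 CPM there (3.26-fold, 5 of 5 libraries), 22.8 CPM in Xcr1-positive dendritic cells and 4.7 CPM in macrophages. It was far below Fscn1 Ccr7 dendritic cells (1370 CPM). The monocyte attractants Ccl2 and Ccl7 were lowest among the 5 groups, at 96.5 and 42.1 CPM, and Ccl8 stood at 126.4 CPM against 1313 CPM in Cd209a-positive dendritic cells. These differences were uneven: Ccl2 was higher in Epcam Ccl17 cells than in Cd209a-positive dendritic cells in 1 of 5 libraries, and Ccl7 and Ccl8 in 2. Against Xcr1-positive dendritic cells 6 of 15 were higher (Ccl22, Ccl24, Cxcl2, Ccl9, Ccl6 and Cxcl10; 6.79% of all genes) and 1 lower, against Fscn1 Ccr7 dendritic cells 1 of 15 was higher and 6 lower (6.77% and 12.5% of all genes), and against macrophages 1 of 16 was higher and 8 lower (6.00% and 10.3%). Among chemokine receptors, Ccr1 stood at 307.5 CPM beside 271.7 CPM in macrophages and 168.7 CPM or less in the dendritic cell groups, whereas Ccr2, which brings monocytes into tissue, stood at 129.3 CPM against 422.3 CPM in Cd209a-positive dendritic cells.

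Of 17 receptors for growth factors and cytokines at this level, Il1r2 and Kit were 2-fold higher than in Cd209a-positive dendritic cells and Il4ra and Il6ra 2-fold lower, beside 2.20% and 5.04% of all genes. The list median was -0.03 on the log2 scale, beside -0.14. The GM-CSF receptor chain Csf2rb stood at 350.2 CPM, below Xcr1-positive dendritic cells (429.6 CPM) and above the others (212.0 to 273.6 CPM). Crlf2, the receptor for TSLP, stood at 153.6 CPM beside 146.2 CPM in Cd209a-positive dendritic cells. Of the list of STAT5 and STAT6 targets and type 2 genes, Ccl22 and Mgl2 were higher and Retnla, Clec10a, Il4i1 and Mrc1 lower of 11 at this level in the same comparison, beside 2.20% and 5.04% of all genes, with a list median of -0.33 beside -0.14. Cish and Socs3, which STAT factors induce, stood at 69.0 and 242.4 CPM beside 68.6 and 270.4 CPM. The direction of the STAT5 and STAT6 list changed with the group compared. Against Xcr1-positive dendritic cells 6 of 9 were higher and 1 lower (6.79% and 4.58% of all genes), with a median of 1.98. Against Fscn1 Ccr7 dendritic cells 3 of 14 were higher and 6 lower (6.77% and 12.5%). Against macrophages 4 of 11 were higher and 3 lower (6.00% and 10.3%).

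Of 24 transcription factors at this level, none was 2-fold higher than in Cd209a-positive dendritic cells and 3 were lower, Bcl11a, Zeb2 and Maf, beside 2.20% and 5.04% of all genes, with Bcl11a at 26.6 against 89.1 CPM and Zeb2 at 131.4 against 344.8 CPM. Against Xcr1-positive dendritic cells Irf4, Bhlhe40 and Runx1 were higher and Irf8, Batf3 and Ahr lower of 20, beside 6.79% and 4.58% of all genes. Bhlhe40 stood at 468.6 CPM, the highest of the 5 groups. None of 9 costimulatory and inhibitory ligands was 2-fold apart from Cd209a-positive dendritic cells, a count near the shares of all genes, with Cd86 at 296.0 beside 233.2 CPM and Tnfsf9, the ligand of 4-1BB, at 105.2 beside 105.8 CPM. Against Fscn1 Ccr7 dendritic cells Cd200, Tnfrsf9, Cd274, Cd40 and Pdcd1lg2 were lower, and Havcr2 and Tnfsf9 higher, of 11 at this level, beside 12.5% and 6.77% of all genes. Il12b, a subunit of IL-12, stood at 21.2 CPM against 603.3 CPM there.

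Of the epithelial adhesion and surface genes, Itgae, Plet1, Spint2 and Cldn1 were 2-fold higher than in Cd209a-positive dendritic cells of 11 at this level (2.20% of all genes), and none was lower. Cldn1, a tight junction claudin, stood at 77.4 against 25.7 CPM, yet Xcr1-positive dendritic cells had 110.5 CPM. Against the latter only Cdh1 of 11 was higher, at 193.9 against 5.6 CPM, and Itgae lower, near the 6.79% and 4.58% of all genes. Of the retinoic acid, lipid and tolerance genes only 3 reached 50 CPM against Cd209a-positive dendritic cells, with none 2-fold apart (2.20% and 5.04% of all genes). Against Xcr1-positive ones 1 of 3, Ptgs2, was higher (6.79%). Aldh1a2, which makes retinoic acid, stood at 3.1 CPM in Epcam Ccl17 cells.

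Transcripts of the target of the inhibitor differed by less than 2-fold between Epcam Ccl17 cells and each group. Ezh2 stood at 51.2 CPM beside 43.0, 77.4 and 61.5 CPM in the 3 dendritic cell groups and 45.1 CPM in macrophages. Among 6 PRC2 genes at this level, Jarid2 was 2-fold lower than in Cd209a-positive dendritic cells (74.7 against 156.7 CPM) and Aebp2 2-fold lower than in Fscn1 Ccr7 dendritic cells, and none passed 2-fold in the other comparisons. The shares of all genes lower in those comparisons were 5.04% and 12.5%, near 1 of 6 for the latter. These values pool vehicle and EZH2i mice.

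Cell cycle genes were present. Of 7 at this level, Stmn1, Top2a, Birc5 and Ube2c were 2-fold higher than in Cd209a-positive dendritic cells (2.20% of all genes), none of 7 was 2-fold apart from macrophages (6.00% of all genes higher and 10.3% lower), and of 13 at this level against Xcr1-positive dendritic cells Cdk1, Ube2c and Rrm2 were lower (4.58%). Against Fscn1 Ccr7 dendritic cells 5 of 7 were higher (6.77%). Top2a, which untangles DNA in dividing cells, stood at 130.2 CPM against 43.5 CPM in Cd209a-positive and 219.1 CPM in Xcr1-positive dendritic cells. This level came from some of the cells: in the 653 cells of the largest cluster described below Top2a stood at 17.4 CPM, under the level of Cd209a-positive dendritic cells, and in the 268 of the next it stood at 414.2 CPM. Of the heat shock and immediate early list, 4 of 15 genes were 2-fold lower than in Cd209a-positive dendritic cells (Hspa1b, Hspa1a, Hsph1 and Jun; 5.04% of all genes) and none higher, and 3 of 15 were lower than in Xcr1-positive ones (4.58%), with list medians of -0.64 and -0.14. Against Fscn1 Ccr7 dendritic cells 3 of 14 were lower and 2 higher, beside 12.5% and 6.77% of all genes, and against macrophages 2 of 14 were lower, near the 10.3% of all genes. Hspa1a stood at 97.0 CPM beside 711.6, 202.7 and 297.6 CPM in the 3 dendritic cell groups and 239.6 CPM in macrophages, and Hspa1b at 49.7 CPM. The Hspa1a difference did not hold in each library, since in 2 of 5 libraries shared with Cd209a-positive dendritic cells and 4 of 8 shared with Xcr1-positive ones it was higher in Epcam Ccl17 cells. These genes respond to heat and to tissue dissociation, and the part of either in these levels was not tested.

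Markers of other cell types bounded the label. Of the Langerhans cell list, Il1r2, Cdh1, Mfge8 and Cd24a passed 50 CPM, but Cd207, which encodes langerin and defines that cell type, and Lad1 were at 0 UMIs, and Bcam stood at 0.1 CPM. The list without the genes of the rule summed to 1192 CPM in Epcam Ccl17 cells, beside 466.4, 354.9 and 257.5 CPM in the 3 dendritic cell groups and 138.4 CPM in macrophages, and Il1r2 supplied 703.9 of the 1192 CPM. For Cd207, no UMI among 1143 cells allows at most 0.297 CPM at 3 counts. Of the mast cell and basophil list Cpa3, Mcpt8, Fcer1a and Ms4a2 were at 0, and Kit supplied 81.2 of the 84.2 CPM that the list summed to. Of the tumor epithelial list Krt19, Cldn4, Cldn7, Cldn6, Elf3 and S100a14 were at 0 besides the keratins that the rule excluded, and Cdh1 made up 193.9 of the 194.0 CPM that the list summed to. B cell markers summed to 1.9 CPM with Ms4a1 at 0, T cell markers outside the rule to 12.2 CPM, and stromal and endothelial markers to 11.3 CPM.

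Macrophage transcripts were present in every group. The 11 macrophage markers other than C1qa summed to 4694 CPM in Epcam Ccl17 cells, ranging from 1893 to 13415 CPM over libraries. They summed to 5335 CPM in Xcr1-positive, 6851 CPM in Cd209a-positive and 11180 CPM in Fscn1 Ccr7 dendritic cells, and to 30099 CPM in macrophages. The pooled level was lowest in Epcam Ccl17 cells, but the library ranges of the dendritic cell groups overlapped. None of 11 was 2-fold apart from Xcr1-positive dendritic cells, a count near the shares of all genes (6.79% and 4.58%). The part of free RNA or of doublets in this signal was not tested.

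To ask whether the cells lay together by genes that did not choose them, all 50919 gated cells were clustered on 2000 variable genes without the genes of the rule, Plet1 and Kit. Of the Epcam Ccl17 cells, 57.1% fell into 1 of 20 clusters (653 cells, interval 54.2 to 60.02), which had 1918 cells and the number 7. The same cluster took 69.1% of Cd209a-positive dendritic cells, 0.169% of Xcr1-positive dendritic cells, none of the Fscn1 Ccr7 dendritic cells and 0.185% of macrophages. Xcr1-positive and Fscn1 Ccr7 dendritic cells had clusters of their own, with 94.1% in cluster 10 and 94.2% in cluster 15. The share of Epcam Ccl17 cells in cluster 7 ranged from 25% to 85.7% over libraries, with a median of 61.4%. This range takes in libraries with under 20 Epcam Ccl17 cells, the fewest being 7 in library 10. At resolution 0.4 instead of 0.8, 80.3% shared 1 cluster, and with 1000 variable genes 70.8% did. At resolution 1.6, 55.7% did, while only 5.66% of Cd209a-positive dendritic cells stayed with them. Among the nearest neighbors of an Epcam Ccl17 cell, 42.4% were Epcam Ccl17 cells, against 2.26% over all gated cells and 5.24% for Cd209a-positive dendritic cells. The share was 29.1% for cells with Epcam and no Ccl17 and 11.7% for cells with Ccl17 and no Epcam.

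**Figure D5:**
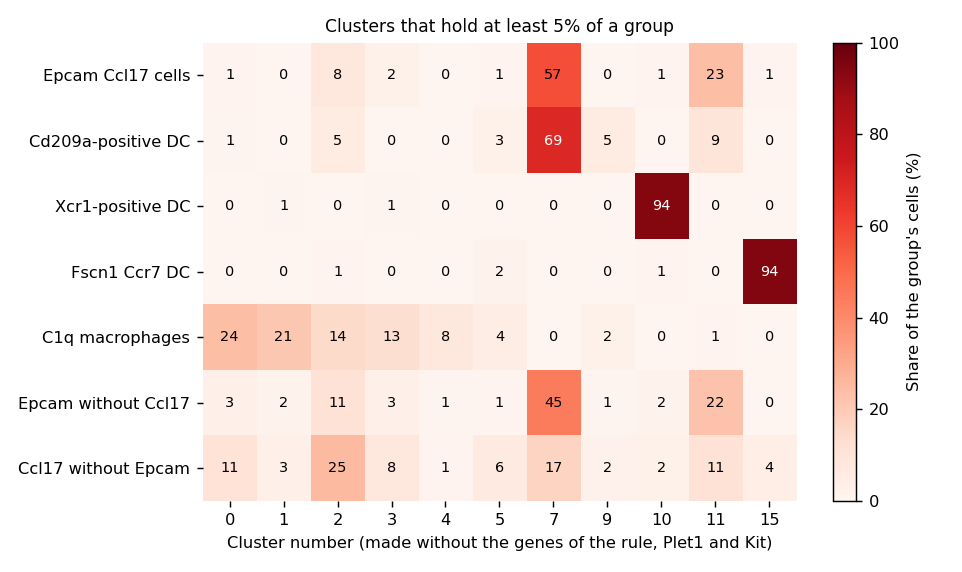
Percentage of each group's cells (rows) in each cluster that holds at least 5% of any group (columns, cluster number), from clustering without the genes of the rule, Plet1 and Kit. Epcam Ccl17 cells and Cd209a-positive dendritic cells share cluster 7, at 57.1% and 69.1%, while Xcr1-positive and Fscn1 Ccr7 dendritic cells lie in clusters 10 and 15.

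Epcam Ccl17 cells outside cluster 7 had more macrophage transcripts, and many of them had more cell cycle transcripts, both of which clustering used. Cluster 11 took 268 of them (23.4%), with Top2a at 414.2 CPM against 17.4 CPM in those of cluster 7, and Apoe at 6246 against 529.0 CPM; library 6 supplied 48.5% of this set. Its Plet1 (491.6 CPM) and Kit (84.4 CPM), which clustering did not use, stood beside those of cluster 7 (728.8 and 101.4 CPM). Cluster 2, where 14.2% of macrophages lay, took 92 cells (8.05%). These had Dcstamp at 303.7 CPM and Ccl17 at 1605 CPM, but Kit at 5.8, Ppp1r1a at 1.0 and Ltb at 2.9 CPM, no Flt3 UMI, and C1qa at 2060 CPM against 269.7 CPM in cluster 7. Cluster 13 took 38 cells, 34 of them from library 6. Beside Epcam and Ccl17, which the rule required, the cells of cluster 2 thus had Dcstamp with little or none of Kit, Ppp1r1a, Ltb and Flt3. Their Epcam stood at 182.8 CPM against 397.2 CPM in those of cluster 7.

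The 653 cells of cluster 7 had higher levels of these genes than the pooled cells. Of these, Epcam and Ccl17 were not used in clustering, and Il1r2, H2-DMb2 and Dcstamp could be. Their Epcam stood at 397.2 CPM, Ccl17 at 1941 CPM, Il1r2 at 916.9 CPM and H2-DMb2 at 482.7 CPM. Cluster 7 also held 1265 other cells, with a lower median of 4475 UMIs, of which 19.6% had an Epcam UMI and 35.4% a Ccl17 UMI. In these, Plet1 stood at 407.3 CPM, Il1r2 at 673.8 CPM and Dcstamp at 103.1 CPM, below the Epcam Ccl17 cells of the cluster. Their H2-DMb2 (337.5 CPM), H2-Oa (234.2 CPM), Ltb (81.2 CPM), Cdh1 (160.8 CPM) and Kit (82.3 CPM) were below those cells too. H2-Oa and Kit were nonetheless no lower than in all Epcam Ccl17 cells pooled. High levels of these genes were therefore not particular to Epcam Ccl17 cells within the cluster.

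Cells with only 1 of the 2 defining transcripts were described for comparison. The 537 cells with Epcam and no Ccl17 had Plet1 at 320.0 CPM, Kit at 65.5 CPM, Il1r2 at 574.1 CPM and Mgl2 at 486.2 CPM, and 44.5% of them fell into cluster 7. The 2611 with Ccl17 and no Epcam had 186.3, 22.7, 225.4 and 578.0 CPM of the same genes, and 16.8% fell into cluster 7. The order of the 3 sets was therefore not the same for each gene: Mgl2 was lowest without Ccl17, and Plet1, Kit and Il1r2 were lowest without Epcam. C1qa ran the other way, at 958.1, 1931 and 3195 CPM.

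Within Epcam Ccl17 cells thinned to 2000 UMIs, some genes were detected together more often than others. H2-Oa was seen in 40.5% of cells with an Il1r2 UMI and 22% of those without (intervals 36.7 to 44.5 and 18.3 to 26.1). It was seen more often with Il1r2 in 9 of 9 libraries. Without library 6, which had the lowest level of both genes among these 9, the shares were 43.0% and 24.0%. Plet1 was seen in 56.1% and 44.7%. Cells with a C1qa UMI had less H2-Oa, at 23.5% against 42.1%, less Plet1, at 45.8% against 56.8%, and less Kit, at 11.2% against 18.4%, in 8, 8 and 9 of 9 libraries. For Dcstamp the shares were 30.7% (26.8 to 34.8) and 26.4% (22.8 to 30.4), with overlapping intervals. It was seen more often with C1qa in 6 of 9 libraries, and without library 6 the shares were 32.2% and 26.1%.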

How the data were processed

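Single-cell RNA was profiled from CD45+ cells of 12 MC38 tumors with the 10x 3' version 3 kit. The authors deposited 1 pooled matrix of raw UMI counts (31053 genes, 140639 barcodes). The submitters' notes name Cell Ranger 2.1.1, Seurat and build mm10, whereas the matrix header names Cell Ranger 3.0.2. Library totals ranged from 21649947 to 158760328 UMIs. Gene identifiers were matched to GENCODE M21 (GRCm38), and 30934 were found. No label used here ties a library to a mouse, so the planned comparison of EZH2i with vehicle was not run.

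Cells were chosen and compared with scripts in Python (3.11.15) that used scipy 1.17.1 for intervals, pandas 2.3.3 for tables and numpy 2.4.6. UMIs were summed over cells and scaled to 1000000, with exact Poisson intervals at 95% for levels and exact Clopper-Pearson intervals for shares. A gene was called higher or lower at 2-fold, with at least 50 CPM in either group, and genes of a rule were not counted. Groups with no UMI were set to 3 counts per group. The text names the genes of the rule, the 4 markers, genes of the lists, the 10 highest and 10 lowest against Cd209a-positive dendritic cells with 1 direction in every library with at least 20 cells of both groups, and the 20 highest against all 4 groups. Clustering used log-normalized counts, 30 principal components, 20 neighbors and Leiden communities (leidenalg 0.10.2, resolution 0.8). Doublets were not removed, and leaving out the 10% of members with the most UMIs was tried as an alternative. Members and lists were chosen with earlier results of these data known. The list genes Ifi30, Clec7a and Clec6a were not analysed here, and some named genes are not reported here.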

Additional observations from a re-analysis of the deposited data

How the results depend on the processing

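The number of Epcam Ccl17 cells was 564 with at least 2 UMIs of both genes, and 801 to 1136 without 1 library at a time. Libraries 1 to 6 and 7 to 12, alternatives chosen after seeing the data, held 810 and 333; the share without library 8 and the detection of gene pairs by library were also added then. Other limits on H2-Ab1, genes, mitochondrial UMIs or keratins kept the number within 1.5 times. Without 1 library at a time, the genes higher and lower numbered 62 to 77 and 111 to 175 against Cd209a-positive dendritic cells, 178 to 222 and 125 to 142 against Xcr1-positive ones, 189 to 233 and 360 to 425 against Fscn1 Ccr7 ones, and 164 to 202 and 278 to 337 against macrophages. By construction the filter moved every count: at 20 CPM they were 153 and 292, 296 and 259, 391 and 699, and 283 and 532, and at 100 CPM 35 and 81, 107 and 72, 97 and 216, and 98 and 189, in that order. The median over shared libraries gave 91 lower genes against Cd209a-positive dendritic cells, of which 63 were among the 151 pooled calls, and the cells of cluster 7 alone, also added later, gave 254 there and 221 against Xcr1-positive ones; the cause was not tested. All 20 leading genes stayed above all 4 groups in each setting run. They were chosen by their ratio to these groups in the same cells, so this outcome was largely set by the choice. The share of cells in 1 cluster was 80.3% at resolution 0.4 and 70.8% with 1000 variable genes. Log2 ratios were followed for 37 genes, from the markers and the highest and lowest ranked genes. Genes named from the lists alone were not followed. Of 3310 such ratios, 497 moved beyond their counting interval and 4 reversed. With the median over libraries these were Cd7 to Xcr1-positive cells (-0.97), and Cyp7b1 (-3.58) and Clec10a (-0.62) to Fscn1 Ccr7 cells. Pclaf turned to -0.92 against Fscn1 Ccr7 cells within cluster 7. Cells were paired by library only as directions within shared libraries and as the median over them, and no paired test was run. The library numbers carry no replicate number of the labels. Low genes were limited by depth, since the floor of 3 counts in the Fscn1 Ccr7 cells is 2.67 CPM.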
